A study of Mus musculus with 6 samples.

Results

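Smooth muscle contractile genes encode the thin filaments, motor proteins and intermediate filaments with which smooth muscle cells shorten. In such cells calcium and calmodulin activate myosin light chain kinase, which phosphorylates the regulatory light chain and lets smooth muscle myosin pull on actin. Many of these genes are switched on by serum response factor together with its partner myocardin. In skin they are known from vessel walls and from the arrector pili muscles of hairs, and in the uterus they fill the myometrium.

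The genes described here are Actg2, Acta2, Tagln, Cnn1, Myh11, Lmod1, Smtn, Des and Myl9. They were chosen by their role in smooth muscle and by the high signal of some of them in mutant sample 1. All probe sets whose platform annotation gives exactly 1 of these symbols were taken, which gave 13 of the 45101 probe sets on the array. Acta2 had 3 probe sets, Myh11 and Des had a pair each, and the other 6 genes had 1 each.

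The samples were mouse skin at embryonic day 16.5, with 3 samples of Tcfap2c mutants and 3 of controls, each hybridised to 1 Affymetrix array. Tcfap2c, now Tfap2c, encodes the transcription factor AP-2 gamma. The labels give no strain, allele, Cre driver or age other than the stage for either group, and the description of the controls also mentions the mutation, while titles, source names and design place them as controls. Separate animals or litters are not named for the samples, so the p-values rest on a spread between samples that may be technical. In such bulk RNA more cells of a type and more RNA per cell cannot be told apart.

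Mutant sample 1 stood apart from the other 5 arrays. On average it correlated with the rest at 0.94, where each other array did so at 0.961 to 0.97, and its score on the first principal component, with 44.6% of the variance, was -65.1 against 0.352 to 28.3. Keratinocyte markers were present in all 6 samples. The suprabasal keratin Krt10 gave between 38888 and 55935, and the basal keratin Krt5 gave 11821 in mutant sample 1 and 16961 to 22130 in the other samples. Probe sets of Y-linked genes give a guide to background: over 9 of them in the 3 arrays where Xist was high, the signal had a median of 6.35 and reached 42.5. The mean signal of the Xist probe sets reached 6071 in mutant sample 1, 4068 in control sample 1 and 4421 in control sample 2, and lay between 26.0 and 63.7 in the remaining 3. The number of arrays limits the precision.

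The 2 smooth muscle actins are the subunits of the thin filament. Actg2 encodes the gamma actin of visceral smooth muscle. Its probe set, 1422340_a_at, gave 13445, 314 and 427 in mutant samples 1, 2 and 3, against 451, 312 and 411 in control samples 1, 2 and 3. In mutant sample 1 the signal was 29.8 times that of the highest other sample, while mutant samples 2 and 3 lay within the range of the controls. Acta2 encodes the alpha actin of vascular smooth muscle and of myofibroblasts. Its brightest probe set, 1416454_s_at, gave 23703, 5081 and 5752 in mutant samples 1, 2 and 3, against 5578, 6075 and 6962 in control samples 1, 2 and 3. Mutant sample 1 was again the highest, by 3.4 times, over a signal that was bright in every sample. The name of this probe set ends in _s_at, the array's mark for probes that match several transcripts, and actin coding sequences are nearly identical, so its signal may hold that of other actins.

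The other Acta2 probe sets were dim. One of them, 1444105_at, gave 83.1, 33.1 and 38.4 in mutant samples 1, 2 and 3 and 22.9, 23.9 and 26.4 in control samples 1, 2 and 3. The other, 1456658_at, lay between 10.96 and 42.4 in all 6 samples, with mutant sample 1 at 30.9. In the 5 samples other than mutant sample 1, both lay within the range of the Y-linked probe sets.

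Tagln, Cnn1, Lmod1 and Smtn encode proteins that bind or arrange actin. Tagln encodes transgelin (SM22 alpha), an actin-bundling protein and an early marker of smooth muscle. The probe set 1423505_at gave 13814, 294 and 383 in mutant samples 1, 2 and 3 and 316, 396 and 508 in control samples 1, 2 and 3. The highest other sample, control sample 3, lay 27.2-fold below mutant sample 1, and mutant samples 2 and 3 gave values below and inside the range of the controls.

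Cnn1 encodes calponin, which restrains the myosin motor on the thin filament. The probe set 1417917_at gave 2800.0, 21.9 and 20.4 in mutant samples 1, 2 and 3, and 61.1, 22.3 and 27.4 in control samples 1, 2 and 3. Here the ratio of mutant sample 1 to the highest other sample, control sample 1, was 45.8. The remaining 4 samples lay below 42.5, the highest of the Y-linked values.

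Lmod1 encodes leiomodin, which nucleates actin filaments in smooth muscle. Its probe set 1427485_at was low throughout, at 134 in mutant sample 1, 21.2 and 8.61 in mutant samples 2 and 3, and 15.1, 5.54 and 17.0 in control samples 1, 2 and 3. The ratio of mutant sample 1 to the highest other sample was 6.35, and all others lay in the range of the Y-linked probe sets. Smtn encodes smoothelin, an actin-associated protein of contractile smooth muscle. The probe set 1452469_a_at gave 1218, 592 and 564 in mutant samples 1, 2 and 3 and 625, 581 and 721 in control samples 1, 2 and 3. This was the smallest gap of any of the 9 genes, with mutant sample 1 at 1.69 times the highest other sample.

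Myh11 and Myl9 encode parts of the motor. Myh11 is the smooth muscle myosin heavy chain. Its brighter probe set, 1448962_at, gave 3746, 211 and 171 in mutant samples 1, 2 and 3, against 209.9, 247 and 264 in control samples 1, 2 and 3. Against the highest other sample, control sample 3, mutant sample 1 was 14.2-fold higher. The dimmer probe set, 1418122_at, gave 131 in mutant sample 1 and 8.63 to 13.3 in the other samples, a ratio of 9.89 to the highest of them. Those other values lay in the range of the Y-linked probe sets, so this ratio is not an exact fold. Myl9 is the regulatory light chain that the kinase phosphorylates. The probe set 1452670_at gave 6977, 1299 and 2203 in mutant samples 1, 2 and 3, and 1840, 1707 and 2052 in control samples 1, 2 and 3. Mutant sample 1 was 3.17 times the highest other sample, mutant sample 3, and mutant sample 2 was the lowest of all.

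Des encodes desmin, the intermediate filament of smooth, skeletal and heart muscle. Its brighter probe set, 1426731_at, gave 3381, 1510.2 and 1124 in mutant samples 1, 2 and 3 and 1584, 1511 and 1674 in control samples 1, 2 and 3. Mutant sample 1 was 2.02 times the highest other sample, the value nearest above 2-fold, and mutant sample 3 was the lowest. The dimmer probe set, 1426732_at, did not have its highest value in mutant sample 1. It gave 61.8, 98.1 and 64.6 in mutant samples 1, 2 and 3, against 35.5, 56.2 and 45.0 in control samples 1, 2 and 3.

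**Figure D1:**
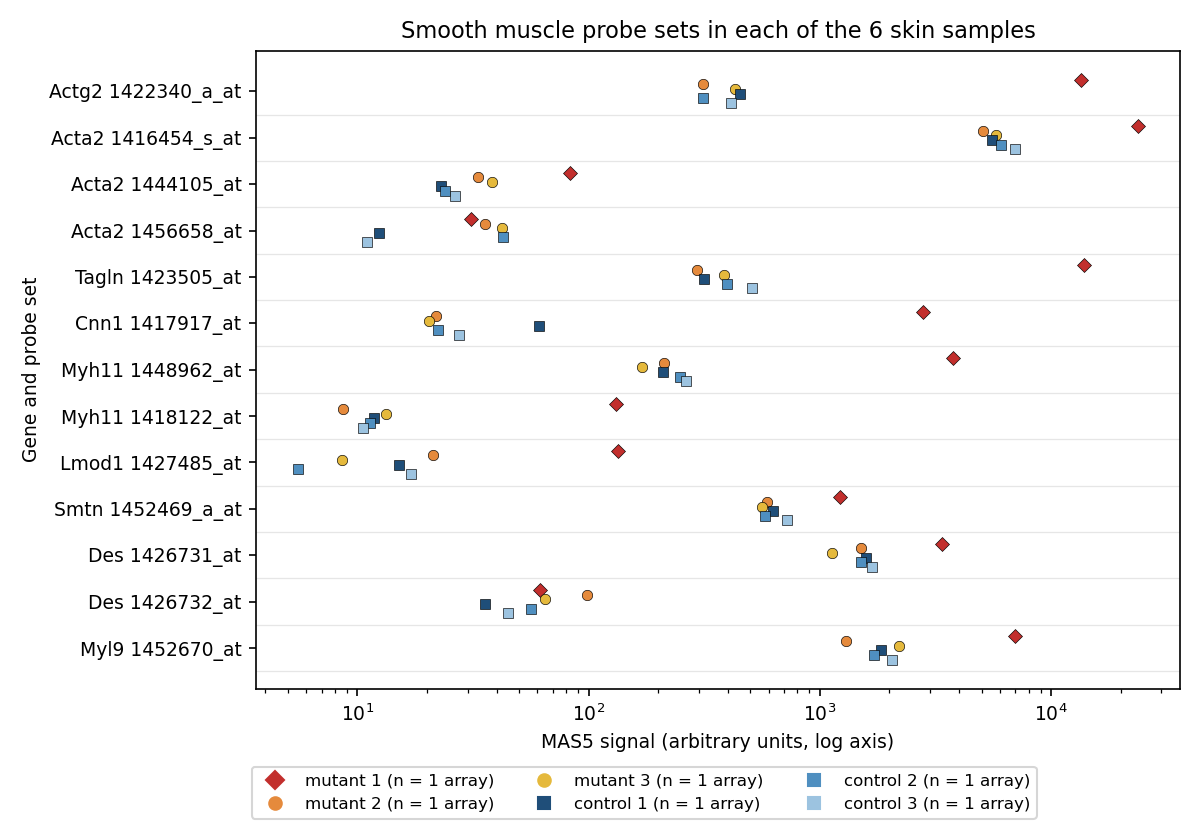
MAS5 signal (arbitrary units, log axis) of the 13 smooth muscle probe sets, 1 row each, with 1 point for each of the 6 arrays. Mutant sample 1 (red diamonds) was the highest in 11 probe sets, while mutant samples 2 and 3 lay among or near the controls.

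Over the 13 probe sets, mutant sample 1 was the highest of the 6 samples in 11, against 19.9% of 45037 probe sets. It was at least 2-fold above the highest other sample in 10, which belong to 8 of the 9 genes, against 1.98% of all probe sets, and in 6 of the 7 probe sets that were bright enough to be tested, against 1.01% of those. That sample was used in choosing the genes, so these counts describe the choice. The same 2-fold margin was met by 1.73% of probe sets for mutant sample 2 and 1.56% for control sample 1, and by 0.493% to 1.01% for the other samples. With the brightest probe set of each gene, the ratio to the median of the other 5 samples was 2.06 for Smtn and 126 for Cnn1. For Cnn1 and Lmod1 that median lay in the range of the Y-linked probe sets, so their ratios are not exact folds. The ratio was 36.0 for Tagln, 32.7 for Actg2 and 17.8 for Myh11, but 4.12 for Acta2, 3.79 for Myl9 and 2.24 for Des. Of the dimmer probe sets, 1456658_at of Acta2 gave 0.869 and 1426732_at of Des 1.1.

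**Figure D2:**
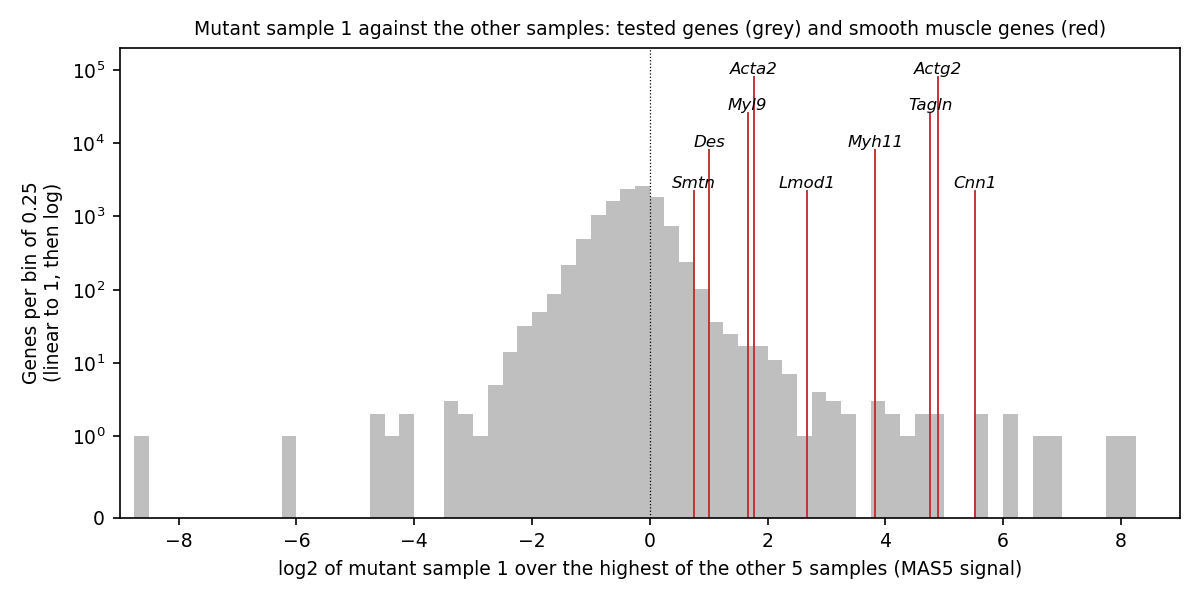
Histogram of log2 of the signal in mutant sample 1 over the highest of the other 5 samples for genes that passed the filter on low signals (grey, 1 probe set per gene), with the 9 smooth muscle genes as red lines of arbitrary height. The smooth muscle genes span ratios from 1.69 (Smtn) to 45.8 (Cnn1), all to the right of 0, and Cnn1 and Lmod1 are drawn although they did not pass the filter.

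Promoter sequences show where 2 of the genes carry the letters that serum response factor is known to bind. The window was the 250 bases before the RefSeq gene start (GRCm38.p6), which was in the RefSeq table for Acta2, Cnn1, Lmod1, Smtn, Des and Myl9. Actg2, Tagln and Myh11 were not matched. The motif searched was the CArG box, which is CC, then 6 bases that are A or T, then GG, and reads the same on both strands. A strict box was found in 1.47% of 32851 windows. Allowing 1 G or C among the 6 central bases, a box was found in 8.59% and at least 2 boxes in 0.67%. Acta2 (chr19:34255374-34255623, minus strand) had no strict box and 2 of the looser kind, CCCTATATGG starting 84 bases and CCTTGTTTGG starting 34 bases before the gene start. Myl9 (chr2:156775214-156775463, plus strand) had the strict box CCTAATAAGG at 161 bases and the looser CCTTGTAAGG at 99 bases. The other 4 windows held no match, among them that of Cnn1 (chr9:22099003-22099252, plus strand). A match is a description of the letters and does not show binding. The lack of a match holds only for these 250 bases and this form of the motif. The sequences are shown with boxes in capitals.
Acta2: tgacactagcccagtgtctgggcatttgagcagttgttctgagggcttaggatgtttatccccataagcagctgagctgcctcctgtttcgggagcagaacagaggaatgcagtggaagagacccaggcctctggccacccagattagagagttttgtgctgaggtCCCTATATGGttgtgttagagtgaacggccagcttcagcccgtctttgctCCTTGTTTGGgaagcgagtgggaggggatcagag
Myl9: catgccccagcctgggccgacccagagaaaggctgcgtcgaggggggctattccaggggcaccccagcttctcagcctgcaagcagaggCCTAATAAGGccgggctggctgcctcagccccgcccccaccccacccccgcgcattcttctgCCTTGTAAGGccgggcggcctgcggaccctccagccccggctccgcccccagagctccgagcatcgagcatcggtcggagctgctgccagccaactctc
Cnn1: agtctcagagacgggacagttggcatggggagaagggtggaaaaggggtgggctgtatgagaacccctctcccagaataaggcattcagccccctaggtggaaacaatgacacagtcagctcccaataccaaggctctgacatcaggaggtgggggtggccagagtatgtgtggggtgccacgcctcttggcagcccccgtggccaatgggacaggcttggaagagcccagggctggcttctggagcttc

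The comparison of mutant with control skin was fitted over all 6 samples for description and without mutant sample 1 as the test, since that sample had entered the choice of the genes. The fits used log2(signal + 24.48), a scale that shrinks the fold changes of dim genes. Of the 13 probe sets, 7 passed the filter on low signals, 1 each for Actg2, Acta2, Tagln, Myh11, Smtn, Des and Myl9, and the same 7 passed with or without mutant sample 1. The other 6, among them the probe sets of Cnn1 and Lmod1, were not tested.

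With all 6 samples, the 7 differences (mutant minus control) were positive, and their median on the log2 scale was 0.54, against -0.025 over the 22518 probe sets tested. The group means rested on mutant sample 1: for Actg2 the mean signal was 4729 ± 7549 over the 3 mutants and 391 ± 71.4 over the 3 controls (SD), and the difference was 1.63 (SE 1.15). Tagln gave 4831 ± 7779.8 and 407 ± 96.4 in the same way (SD, n = 3 each), with a difference of 1.52 (SE 1.19). The differences were 1.08 for Myh11, 0.54 for Myl9, 0.52 for Acta2, 0.21 for Smtn and 0.17 for Des. None of the 7 was past an adjusted p of 0.05 in limma, where 0.00444% of all probe sets tested were, or an unadjusted p of 0.05, where 3.42% were, and nothing is read from this fit because the choice of genes used it.

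Without mutant sample 1, all 7 differences were negative and none passed the test. Their median was -0.19, against -0.01 over all 22518 probe sets tested, of which 52.0% had a negative difference. None of the 7 passed an adjusted p of 0.05 (limma, 2 mutant against 3 control samples), where 39 probe sets (0.173%) did, and none had an unadjusted p under 0.05, where 7.14% did. Both mutant samples of this fit had low Xist and 2 of the 3 control samples high Xist, and the part of sex in the differences was not tested. The fit with 2 mutant samples bounds each difference as follows. Actg2 differed by -0.07 (SE 0.21, 95% interval -0.55 to 0.40, limma adjusted p = 0.964). Acta2 differed by -0.19 (SE 0.12, 95% interval -0.47 to 0.09, limma adjusted p = 0.811). For Tagln the difference was -0.23 with an interval of -0.73 to 0.27, and for Myh11 it was -0.30 with an interval of -0.79 to 0.18.

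For Des the difference was -0.28 (SE 0.15, 95% interval -0.61 to 0.05, limma adjusted p = 0.754). It was -0.07 without mutant sample 3 and -0.49 without mutant sample 2, with neither past the threshold. Smtn gave -0.14 with an interval of -0.49 to 0.20, and Myl9 gave -0.13 with one of -0.58 to 0.31. The sign was not stable for 2 of the genes: without mutant sample 2 Actg2 gave 0.14 and Myl9 0.24, and without control sample 1 Actg2 gave 0.03.

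**Figure D3:**
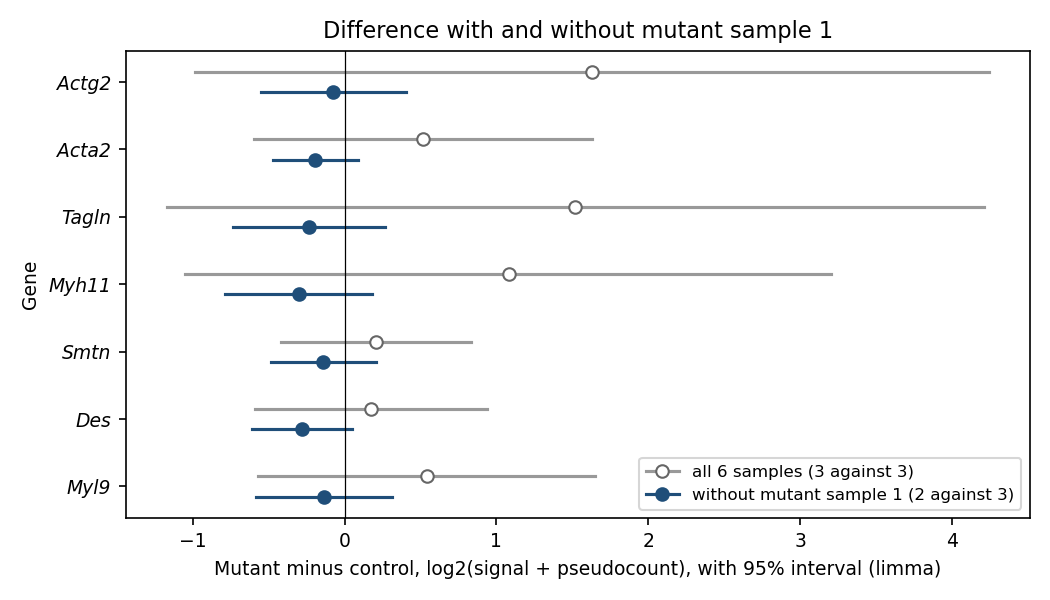
Mutant minus control difference on the log2(signal + 24.48) scale, with its 95% interval from limma, for the 7 tested probe sets with all 6 samples (open) and without mutant sample 1 (filled). The open points lie between 0.17 and 1.63 and the filled points between -0.30 and -0.07, with every interval crossing 0.

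With all 6 samples, each mutant value lay above each control value in 2 of the 13 probe sets, the dim 1444105_at of Acta2 and the dim 1426732_at of Des, where 4.36% of all probe sets did so. With mutant sample 1 left out, mutant samples were higher in the same 2 probe sets (11.6% of all probe sets) and lower in 2, Cnn1 and the brighter Des (10.2%). The margin for Des was 1510.2 in mutant sample 2 against 1511 in control sample 2. The dimmer probe sets of Acta2 and Des gave differences of 0.30 and 0.59 without mutant sample 1, with no test, while the brighter ones gave negative differences.

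Among the 5 samples other than mutant sample 1, the ratio of the highest to the lowest signal ran from 1.28 (Smtn) to 1.72 (Tagln) over the 7 tested probe sets, where the median of all probe sets tested was 1.43 and 5 of the 7 lay above it. Among the probe sets not tested, it was 2.99 for Cnn1, 3.82 for Lmod1 and 3.87 for 1456658_at of Acta2. The summed signal of the 9 genes, 1 probe set each, was 9344 in mutant sample 2 and 10654 in mutant sample 3. It was 10680 to 12635 in the control samples and 69218 in mutant sample 1. Acta2 alone, with the probe set that may hold other actins, gave 5081 and 5752 in mutant samples 2 and 3. It gave 5578 to 6962 in the controls, so outside mutant sample 1 these sums mostly follow Acta2.

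Genes related to the smooth muscle genes were set beside them in mutant sample 1. Acta1 and Actc1, the actins of skeletal and heart muscle, stood at 0.749 and 1.02 times the median of the other 5 samples, against 32.7 for Actg2. The cytoplasmic actins Actb and Actg1 stood at 1.03 and 1.04. Tagln2 and Tagln3 stood at 0.788 and 0.892, against 36.0 for Tagln, and the calponins Cnn2 and Cnn3 at 0.793 and 1.10, against 126 for Cnn1. The non-muscle myosin Myh9 stood at 1.46 and Myh10 at 0.952, against 17.8 for Myh11, and the light chains Myl12a and Myl12b at 1.27 and 0.931. Of 12 non-muscle paralogs, mutant sample 1 was the highest in 2 and at least 2-fold above the others in 0, and of 13 striated muscle paralogs the counts were 3 and 0. The shares over all 18193 genes were 22.7% and 2.13%, so these counts are near the background. The striated light chain Myl2 stood at 2.99 times the median of the other 5 samples but below mutant sample 3. Synm, a partner of desmin in filaments, stood at 9.16, against 2.24 for Des. Without mutant sample 1, 0 of 11 tested non-muscle and 0 of 12 tested striated paralogs passed limma's test, against 0.173% of probe sets tested. Their medians were 0.03 and -0.01, and 0 and 1 had an unadjusted p under 0.05.

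**Figure D4:**
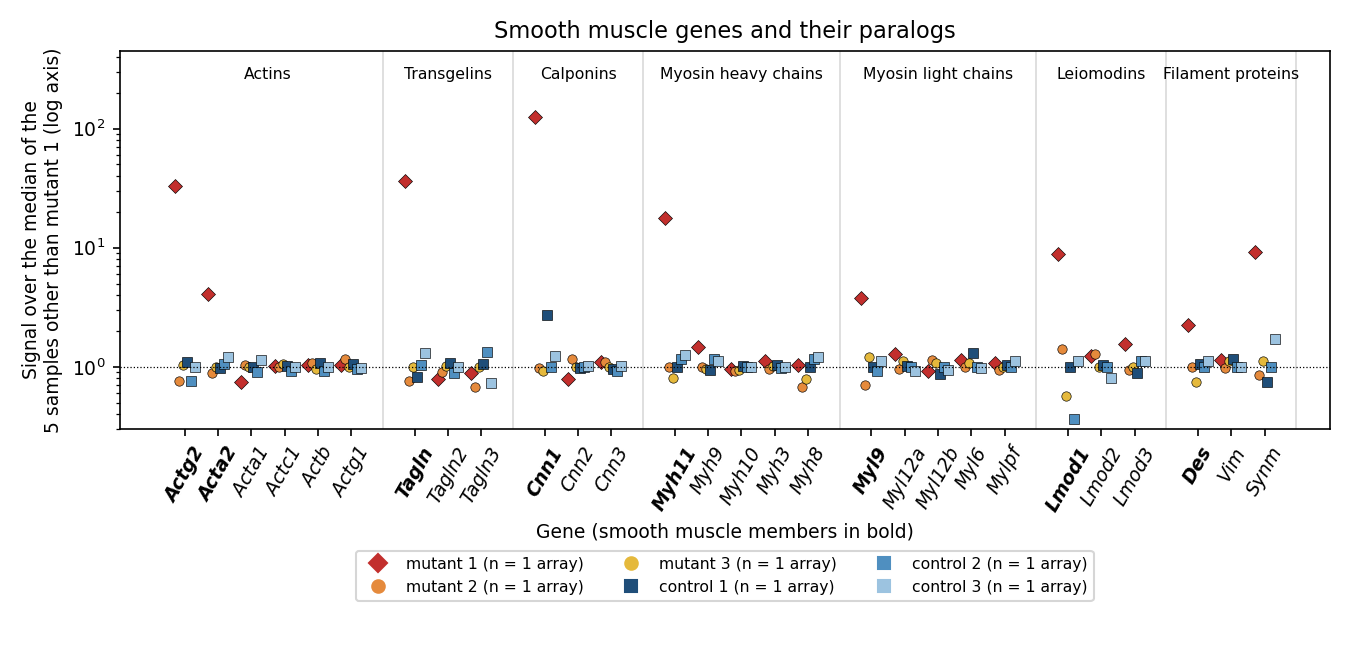
Signal of each smooth muscle gene other than Smtn (bold) and of related genes, divided by the median of the 5 samples other than mutant sample 1 (log axis), with 1 point per array. Mutant sample 1 (red diamonds) stands at 2.24 to 126 for the smooth muscle genes and at 0.749 to 1.56 for the paralogs, with the filament protein Synm at 9.16.

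Myocd encodes myocardin, the partner of serum response factor that drives smooth muscle genes. It gave 1206, 84.0 and 93.4 in mutant samples 1, 2 and 3 and 118, 158 and 140.2 in control samples 1, 2 and 3. The ratio of mutant sample 1 to the highest other sample was 7.63. Mutant samples 2 and 3 lay below every control, as was the case for 12.0% of the probe sets tested. Their difference of -0.52 from the controls did not pass (SE 0.27, limma adjusted p = 0.747). Srf, serum response factor itself, lay between 665 and 778 in all 6 samples, with mutant sample 1 at 767. Of 11 transcription regulators of smooth muscle, Myocd was the only one at least 2-fold above in mutant sample 1. The share over all genes was 2.13%. Like the lists below, this one was drawn up with earlier results of these data known. Without mutant sample 1, 0 of 9 tested passed, against 0.173% of all probe sets tested. Their median was -0.06, and 0 had an unadjusted p under 0.05.

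Among enzymes that set the phosphorylation of the light chain, Mylk, the myosin light chain kinase, gave 5148, 830 and 981 in mutant samples 1, 2 and 3 and 1015, 1031 and 1106 in control samples 1, 2 and 3. Mutant sample 1 stood 4.65-fold above the highest other sample. Mutant samples 2 and 3 were the lowest 2 (difference -0.21, SE 0.14, limma adjusted p = 0.808). They lay below every control in 12.0% of the probe sets tested. In this list of 10 measured genes, mutant sample 1 was the highest in 5 and at least 2-fold above in 1. The shares over all genes were 22.7% and 2.13%. Without mutant sample 1, 8 of 10 tested had a negative difference (median -0.09), where 5887 of all 11574 genes tested did. Of the 10, 0 passed, against 0.173% of all probe sets tested. The 1 gene at an unadjusted p under 0.05 was Ppp1r14a, an inhibitor of myosin phosphatase, with a difference of 0.44 (SE 0.17, limma adjusted p = 0.631). It gave 650.1, 815 and 678 in mutant samples 1, 2 and 3 and 476, 538 and 628 in control samples 1, 2 and 3, so the groups did not overlap, as was the case in this direction for 4.36% of all probe sets.

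Of 19 other measured genes of the smooth muscle cytoskeleton, mutant sample 1 was the highest in 13, where the share over all genes was 22.7%, and at least 2-fold above in 4, where the share was 2.13%. These were Synm (synemin, an intermediate filament protein, 5.34-fold), Csrp1 (a LIM protein, 2.65-fold), Actn1 (alpha-actinin, which crosslinks actin, 2.63-fold) and Dmpk (a protein kinase, 2.59-fold). The list was drawn up with earlier results of these data known, so its counts in mutant sample 1 are a description. Without mutant sample 1, the difference was below 0 for 16 of 18 tested genes and above 0 for 2, and its median was -0.10 against -0.0037 over the 11574 genes tested. None of the 18 passed limma's test, where 0.173% of all probe sets tested did. For 2 the unadjusted p was under 0.05. They were Actn1 with -0.40 (SE 0.13, limma adjusted p = 0.554) and Smtnl2, a smoothelin-like gene, with 0.55 (SE 0.17, adjusted p = 0.501). Actn1 gave 1113 and 969.9 in mutant samples 2 and 3 and 1272, 1434 and 1448 in control samples 1, 2 and 3, so these groups did not overlap, as was the case in this direction for 12.0% of the probe sets tested.

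Channels and receptors of smooth muscle were mostly dim, with 4 of 12 measured genes tested. Of these 0 passed (median 0.05, 0 at an unadjusted p under 0.05), against 0.173% of all probe sets tested. Kcnmb1, a subunit of the calcium-activated potassium channel of smooth muscle, gave 237 in mutant sample 1, 11.1 and 7.53 in mutant samples 2 and 3, and 34.6, 45.6 and 50.5 in control samples 1, 2 and 3. It was 4.69 times the highest other sample in mutant sample 1. Mutant samples 2 and 3 lay below every control, as was the case for 10.2% of all probe sets. The values of mutant samples 2 and 3 and of control sample 1 were in the range of the Y-linked probe sets. Those of control samples 2 and 3 were little above its upper end of 42.5, so the ratio is not an exact fold. Mrvi1, a target of cGMP signalling in smooth muscle, and Htr2b, a serotonin receptor, stood at 2.36 and 3.7 times the highest other sample. The other 5 values of Htr2b lay in the range of the Y-linked probe sets, so its ratio is not an exact fold.

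Counts for other cell types that skin could hold are read against the shares over all genes, 22.7% for the highest value in mutant sample 1 and 2.13% for a 2-fold margin. Over 10 pericyte and vessel wall genes, mutant sample 1 was the highest in 4 and at least 2-fold above in 0, with a summed signal of 10324 against 8679 to 9659. The pericyte genes Pdgfrb and Rgs5 stood at 1.11 and 1.23 times the highest other sample. Mcam, Kcnj8 and Heyl of the same list stood at 0.644, 0.688 and 0.703 times it. The list's median log2 distance between mutant sample 1 and the median of the other samples was -0.041. Over 16 skeletal muscle genes the counts were 6 and 0, with a summed signal of 62877 against 55737 to 69075. Over 10 heart muscle genes they were 1 and 0, with a sum of 4055 against 3320 to 4629. The heart hormone gene Nppa gave 17.4 in mutant sample 1 and 5.22 to 81.4 in the others. Nppb, another heart hormone gene, gave 156 in mutant sample 1 and 52.0 to 121 in the others. Over 14 fibroblast and matrix genes the counts were 6 and 0, with a sum of 187735 against 170535 to 192280. With so few genes in a list, a count of 0 at 2-fold is near the background.

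Several genes of decidua and myometrium were high in the same sample as the smooth muscle genes. Of 15 measured, mutant sample 1 was the highest in 11 and at least 2-fold above in 8. The shares over all genes were the same 22.7% and 2.13%. The list was drawn up with earlier results of these data known, so these counts describe the choice. The summed signal was 64683 against 6085 to 6549, and with 6085 to 6508 in controls. Most of that sum came from Prap1, a secreted protein of uterine epithelium, with 32479 against at most 335, and Prl8a2, a prolactin-family hormone of the decidua, with 14204 against at most 61.2. Pgr, the progesterone receptor, gave 2719 against at most 128, and Esr1, an estrogen receptor, 2464 against at most 347. Oxtr, the oxytocin receptor of the myometrium and also a gene of the channel and receptor list, gave 219.7 against at most 127. Other genes of the list did not have their highest value there: Wnt4 gave 807 against 1038 to 1566, the decidual hormone Prl3c1 2.18 against at most 40.4, and Alpl and Ltf stood at 0.696 and 0.861 times the highest other sample. Trophoblast genes summed to 960.2 in mutant sample 1 and 182 to 338 in the others (3 of 7 at least 2-fold above), and yolk sac and liver genes to 3228 against 812 to 1831 (2 of 7). Gut and bladder genes summed to 415 against 425 to 795 (2 of 10, both dim), with mutant sample 1 the highest in 3. In the same list 2 genes were at least 2-fold below the lowest other sample in mutant sample 1. Upk2, the gene of that list farthest from the other samples, gave 12.1 against 85.7 to 305. The gut regulator Cdx2 gave 3.77 in mutant sample 1 against at most 46.1, and Cdx1 gave 39.4 against at most 5.77. Apart from the 46.1 of Cdx2, all values of these Cdx genes lay in the range of the Y-linked probe sets. No list had a gene listed at 0. The basal keratinocyte list summed to 36470 against 54867 to 67535, the suprabasal list to 193914 against 195418 to 241503 (0 of 9 highest in mutant sample 1, with Flg, the precursor of filaggrin, the 1 of 9 genes past the threshold without that sample, at -4.64 with a limma adjusted p of 0.000512), and the endothelial list to 5235 against 6114 to 7349. The part of these other tissues in the smooth muscle values of mutant sample 1 was not tested.

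**Figure D5:**
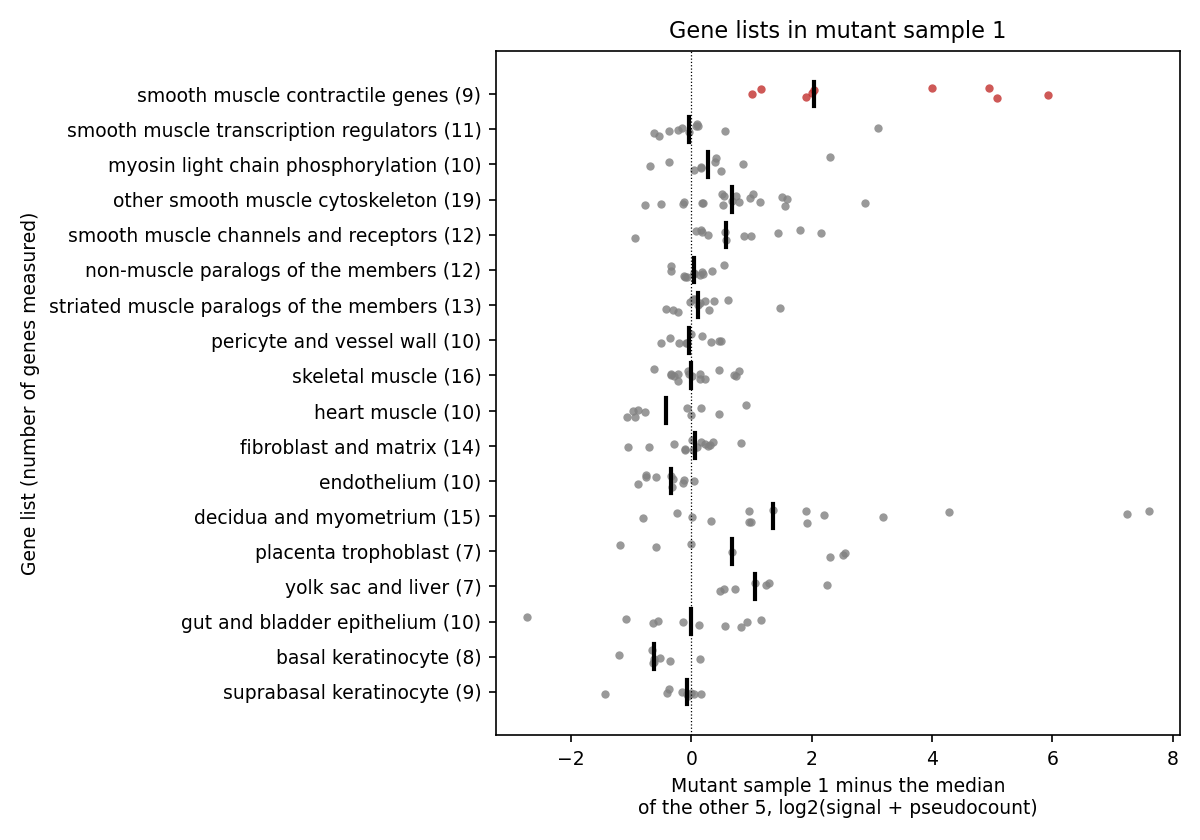
Distance on the log2(signal + 24.48) scale between mutant sample 1 and the median of the other 5 samples, for the smooth muscle genes (red) and for each other gene list (grey), with 1 point per gene and the list's median as a black bar. The smooth muscle median was 2.04 and that of decidua and myometrium 1.36. The smooth muscle genes were chosen partly on this sample, so their place in the plot describes the choice. The other lists were drawn up with earlier results of these data known.

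The genes whose pattern over the 6 samples was nearest to that of Actg2 and Acta2 were found by the root mean square difference of log2 values, each profile centred on its median, among 18193 genes. Nearest to Actg2 were Sgms2, a sphingomyelin synthase (0.213), S100g, a calcium-binding protein (0.22), Sval2 (0.255), the water channel Aqp8 (0.281), Tagln (0.288) and Ctla2a, a cysteine protease inhibitor (0.295). Tagln was thus the only smooth muscle gene among the 6 nearest, with Cnn1 at 0.511 and Myh11 at 0.523. Aqp8 gave 4833 in mutant sample 1 and at most 98.04 elsewhere. Nearest to Acta2 were Dmxl2 (0.128), Mylk (0.142), Chchd10, a mitochondrial protein (0.148), the potassium channel subunit Kcnf1 (0.148), Rab20 (0.15) and Rhpn2 (0.158). Myl9 at 0.215 ranked 21 and Lmod1 at 0.284 ranked 62, while Actg2 and Tagln were at 1.22 and 1.26. These distances are set mostly by mutant sample 1 and describe these 6 arrays. In the samples other than mutant sample 1, S100g, Sval2, Kcnf1, Rab20 and Lmod1 lay in the range of the Y-linked probe sets. The log2 scale used shrinks the fold changes of such dim genes, so their nearness depends on it. Mutant sample 1 stood at 262 and 144 times the median of the others for S100g and Sval2, against 32.7 for Actg2. It stood at 12.0, 10.3 and 8.87 times that median for Kcnf1, Rab20 and Lmod1, against 4.12 for Acta2.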

How the data were processed

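RNA of 6 skin samples was hybridised to Affymetrix mouse arrays after biotin labelling, per the labels' protocols. The authors deposited 1 MAS5 intensity (signal) for each probe set and array, and MAS5 is named without a version in the submitters' processing notes. Each column had a mean of 500 after trimming 2% at each end, so the authors had scaled each array. Detection calls were not used here.

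Signals were analysed as log2(signal + 24.48), the pseudocount being the 20th percentile of all values. The 64 control probe sets were left out, and probe sets were tested when their mean log2 over the fitted samples was above the median. The test was two-sided, by limma 3.58.1 (lmFit and eBayes with a trend) under R 4.3.3, adjusted by Benjamini-Hochberg over all probe sets tested, and the code was tested on simulated data. Gene names came from the platform annotation (34958 probe sets with 1 symbol, 932 with several, 9211 with none), updated against RefSeq GRCm38.p6, and of several probe sets of a gene the one with the highest mean log2 stood for it in the lists. Named were all members, the list genes farthest from the other samples in mutant sample 1 or with the smallest p, any that passed, and the 6 nearest profiles. Genes so named whose values are not printed are covered by the counts or sums of their list. The members and lists were chosen with earlier results of these data known. Figures were drawn with matplotlib 3.10.9.

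Other settings were pseudocounts of 1 and 100, no filter, quantile normalization, median centring, no variance trend, the replicate number as a block, and each sample left out.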

Additional observations from a re-analysis of the deposited data

How the results depend on the processing

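No smooth muscle probe set passed the test without mutant sample 1 in any of 12 other settings (0 throughout, lowest limma adjusted p 0.287), although leaving out mutant sample 2 or 3 gave 1 of 7 at an unadjusted p under 0.05. Of 84 differences of the 7 probe sets under those settings, 80 kept their negative sign. The others were Actg2 with the replicate block (0.031) or without control sample 1 (0.031), and Actg2 and Myl9 without mutant sample 2. In the block fit control sample 1 was alone in its block, so each difference was the same as without control sample 1. The block is thus not a separate check of the sign. The cause of the other changes of sign was not tested. With 1 more sample left out Actg2 ranged from -0.28 (without mutant sample 3) to 0.14 (without mutant sample 2), and Myl9 from -0.51 to 0.24 (without the same samples). With all 6 samples, 9 of 169 differences of the 13 probe sets had the other sign, each of them without mutant sample 1. Over the whole array, 1 probe set passed with 6 samples, 8 with the replicate block, and 1 to 39 with 1 sample left out (39 without mutant sample 1, 3 without control sample 2). Without mutant sample 1, 39 passed, against 20 with no filter, where more probe sets were tested, 67 with median centring (37 higher and 30 lower, against 25 and 14), 6 with no variance trend and 123 with the replicate block. With a further sample left out there were 15 to 95 (95 without mutant sample 2, 15 without control sample 1, 25 without control sample 3). More were lower than higher without mutant sample 2 (72 and 23) and without mutant sample 3 (17 and 10). Where 1 mutant sample remained, it was assumed to vary like the controls. Samples with the same number had deviations from their group means that correlated at -0.0525, -0.0735 and 0.115, so the numbers were not taken as pairs. Of the 13 probe sets, 6 were too dim to test, and MAS5 signals near background limit what can be said of Cnn1 and Lmod1 outside mutant sample 1.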
